A study of Mus musculus with 18 samples.

Results

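The genes described here copy the genome in S phase. They are 44 DNA replication genes, taken by symbol from 48794 genes in a table of RNA sequencing counts, by a rule that uses no measured value, though earlier results of these data were known when the genes were listed. They cover origin licensing, helicase activation, the polymerases and primase, the sliding clamp and its loader, the single-strand binding complex RPA, Okazaki fragment joining, deoxynucleotide supply, chromatin copying and the switch from G1 to S. The samples were bone marrow-derived macrophages of male C57BL/6 mice (Charles River), primary cells matured in culture. Marrow was matured for 7 days in M-CSF at 50 ng/ml, and all 3 groups then stayed in M-CSF at 10 ng/ml for 24 h. Control had no further cytokine. IL4_IL13 had IL-4 and IL-13 added, and IL4_IL13_TNFa had IL-4, IL-13 and TNFa, at 10 ng/ml of each. There were 6 numbered libraries per group. No group received TNFa without the other cytokines, so the effect of TNFa is known here only on top of IL-4 and IL-13.

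M-CSF keeps marrow-derived macrophages alive and lets part of them divide. In G1, the origin recognition complex, Cdc6 and Cdt1 load the MCM helicase onto DNA. At the start of S phase, E2F transcription factors are released from pocket proteins and switch on many genes of this machinery, while Cdc45, GINS and Mcm10 turn the loaded helicase into a moving one. Polymerases, the PCNA clamp, RPA, nucleotide-making enzymes and histone chaperones then carry the fork along. IL-4 and IL-13 are the cytokines of type 2 immunity, and IL-4 is known to drive local macrophage division in mice. TNFa is an inflammatory cytokine.

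All 44 members passed the filter on low counts and were tested in 1 fit with all other genes that passed it, 13177 in all. Levels are CPM, the counts of a gene relative to the scaled library size. Differences are log2 fold changes from edgeR's quasi-likelihood test, each with an approximate standard error after the ±, and a gene was called at a Benjamini-Hochberg adjusted p under 0.05 over all tested genes. Whether each library is its own animal or culture is not given in the labels, so a p-value here reflects only how far the libraries of a group scatter, part of which may be technical. In bulk RNA, fewer cells in S phase and less of these transcripts per cell cannot be told apart. Library totals ran from 14793404 to 20056125 counts.

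Control replicate 1 stood apart for these genes. It held the highest control value of 44 of 44 members, at 1.42 to 7.92 times the mean of controls 2 to 6 (median 3.14). Of all tested genes, 40.2% were highest in that library. It lay above every IL4_IL13 library for 20 members, and the share of all tested genes for which it did was not counted. The spread of the members tells the same: their median coefficient of variation was 65.7% in Control and 20% without replicate 1, against 23.3% in IL4_IL13 and 12.4% in IL4_IL13_TNFa. The main differences from Control are therefore given with and without Control replicate 1. IL4_IL13 replicate 1 was in turn the highest of its group for 40 members, and the share of all tested genes was not counted. Leaving out Control replicate 1 alone keeps that library. For IL4_IL13 against Control, Ccne2 then stood at 2.28 on the log2 scale and Rpa2 at 1.01. Without replicate 1 of all 3 groups they stood at 2.12 and 0.89.

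**Figure D1:**
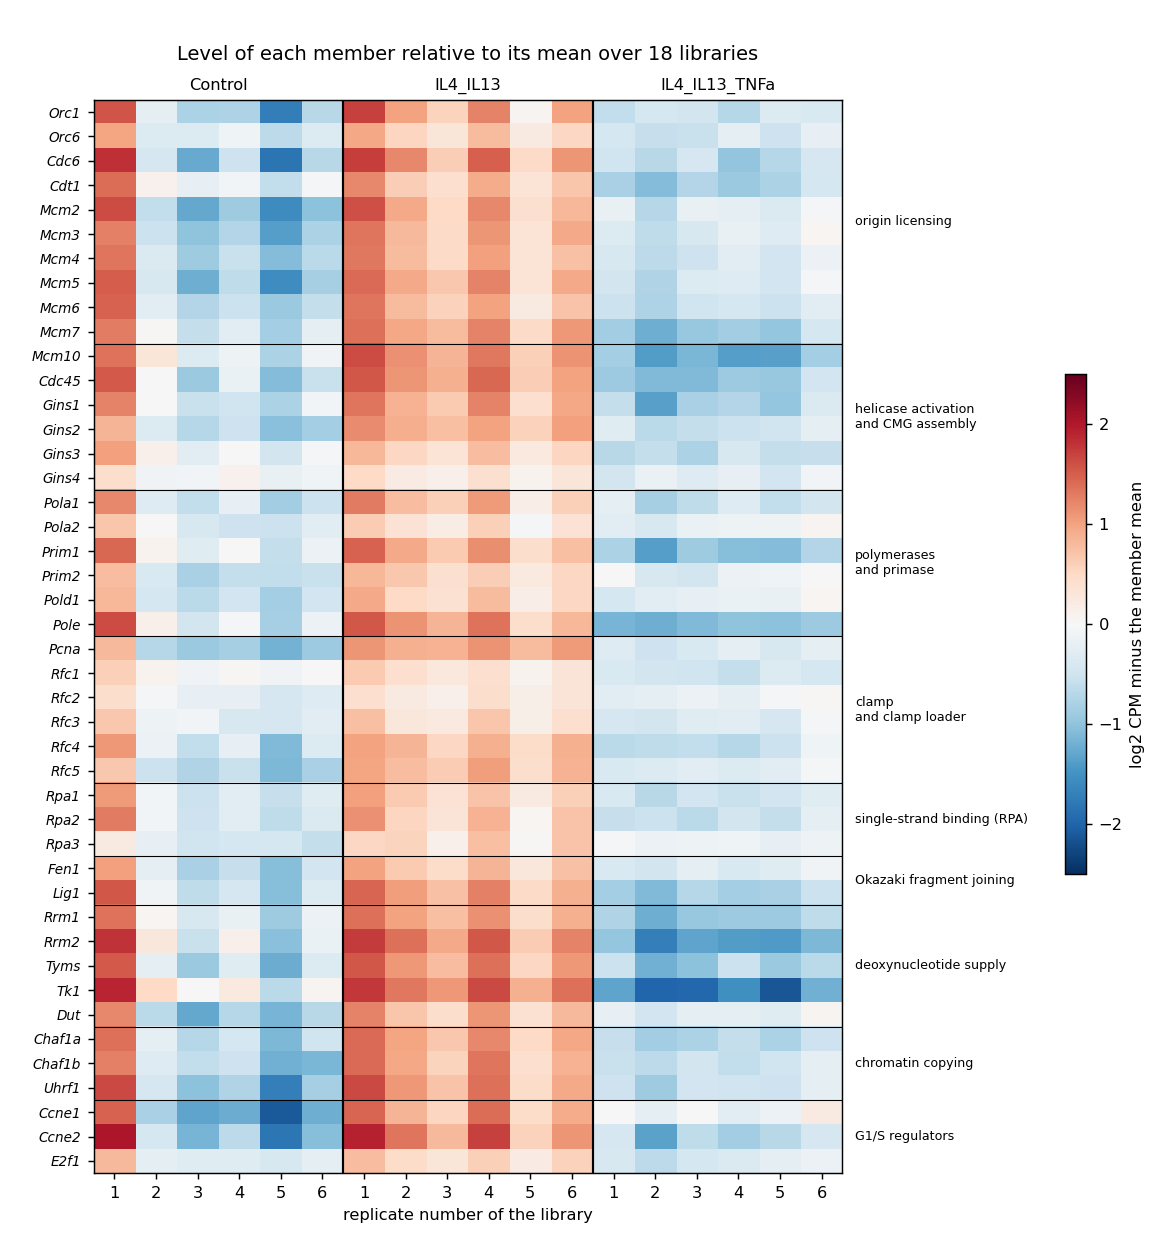
Level of each of the 44 members in the 18 libraries, as log2 CPM minus the member's mean over all libraries (red above the mean, blue below), with members in rows by role and libraries in columns by group and replicate number. Control replicate 1 is red in nearly every row, the IL4_IL13 columns are red with replicate 5 palest, and the IL4_IL13_TNFa columns are blue, as are controls 2 to 6.

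Replication transcripts were highest in IL4_IL13 and low in IL4_IL13_TNFa. Summed over the 44 members, the level was 1003, 1406 and 4491 CPM (lowest, median and highest library) in Control. In IL4_IL13 it was 2459, 3347 and 4506 CPM, and in IL4_IL13_TNFa 1118, 1306 and 1536 CPM. The highest of the IL4_IL13_TNFa libraries lay below the lowest of the IL4_IL13 libraries, whereas Control overlapped IL4_IL13 through replicate 1 and IL4_IL13_TNFa through replicates 3, 4 and 6. By replicate number, the summed level in IL4_IL13 was 1.00 times that in Control for number 1 and 2.04 to 2.73 times for numbers 2 to 6. Against IL4_IL13_TNFa it was 1.91 to 3.40 times as high in the 6 numbers.

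**Figure D2:**
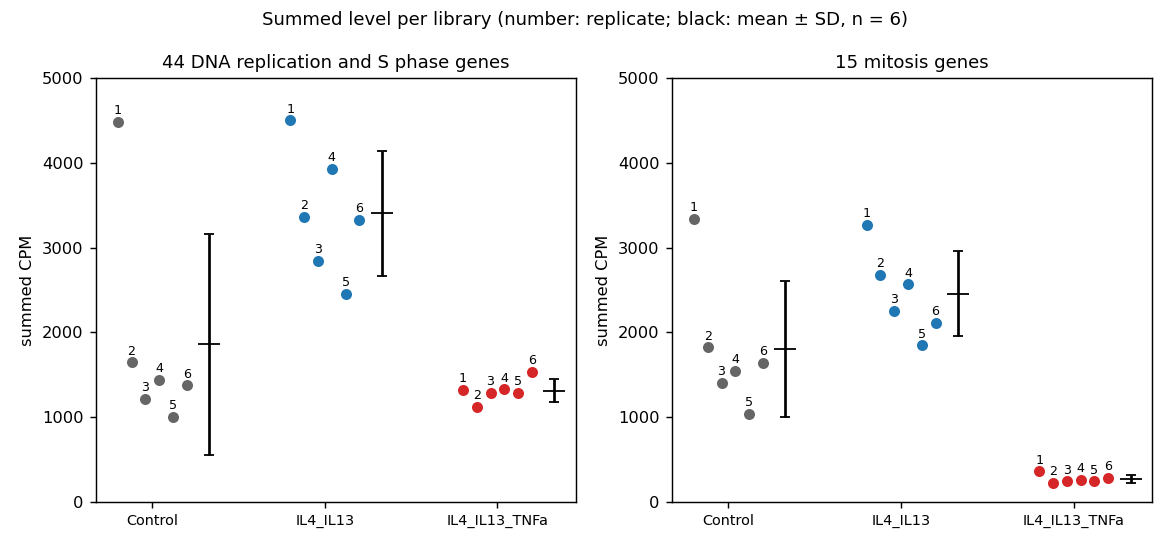
Summed CPM per library of the 44 DNA replication and S phase genes (left) and of 15 mitosis genes (right); coloured points are libraries with their replicate number, and the black cross and bar give the group mean ± SD (n = 6). Control replicate 1 lies just under the highest IL4_IL13 library on the left and above all of them on the right, and the mitosis genes of the IL4_IL13_TNFa libraries lie below every control while the replication genes do not.

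IL4_IL13 against Control asks what the type 2 cytokines did to these genes. Of the 44 members 40 rose. The median log2 difference of the 44 was 0.86 (range 0.25 to 1.41), beside -0.00 over all tested genes. The background was 29.3% of tested genes called higher and 29.7% called lower. The members Cdt1 (adjusted p = 0.12), Gins3 (0.0679), Rpa2 (0.0834) and Ccne2 (0.0517) did not pass edgeR's test. With the replicate number as a block, 44 passed (background 33.4%), these among them at edgeR adjusted p of 0.0205, 0.0116, 0.0109 and 0.002. Without Control replicate 1 the count was also 44 (background 35.5%), with a median of 1.31. The count was 25, 23, 24, 27 or 23 without Control replicate 2, 3, 4, 5 or 6 (background 26.9%, 26.7%, 26.7%, 27.3% or 26.9%). It was 22 without IL4_IL13 replicate 1 (background 26.9%). Without IL4_IL13 replicate 2, 3, 4, 5 or 6 it was 31, 39, 26, 41 or 34. The share of all tested genes is not given here for those fits. At least 2-fold and called were 14 members (background 5.68%). The libraries of the groups overlapped for every member through Control replicate 1, and also through control 4 for Gins4 and control 2 for Pola2. Of all tested genes, 12.5% had every IL4_IL13 library above every control. Against controls 2 to 6 alone, 42 members had every IL4_IL13 library above every control (background 27.0%). By replicate number, 23 members were higher in IL4_IL13 in 6 of 6, and the share of all tested genes that were was not counted.

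Adding TNFa lowered the whole set. In IL4_IL13_TNFa against IL4_IL13, 44 of 44 members fell. Their median log2 difference was -1.32 (range -3.02 to -0.43), beside 0.00 over all tested genes. The background was 29.3% of tested genes called lower and 30.3% called higher. At least 2-fold lower were 33 members (background 10.8%), and at least 4-fold lower were 6 (background 3.96%), namely Tk1, Rrm2, Mcm10, Pole, Cdc45 and Ccne2. For 43 members the groups did not overlap (background 21.5%), Pola2 being the exception. By replicate number, 44 were lower in 6 of 6, and here too the share of all tested genes was not counted. Scaling by library totals moved the median of all tested genes to -0.20 and the calls to 17.6% higher and 46.2% lower, with 44 members still lower at a median of -1.53.

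**Figure D3:**
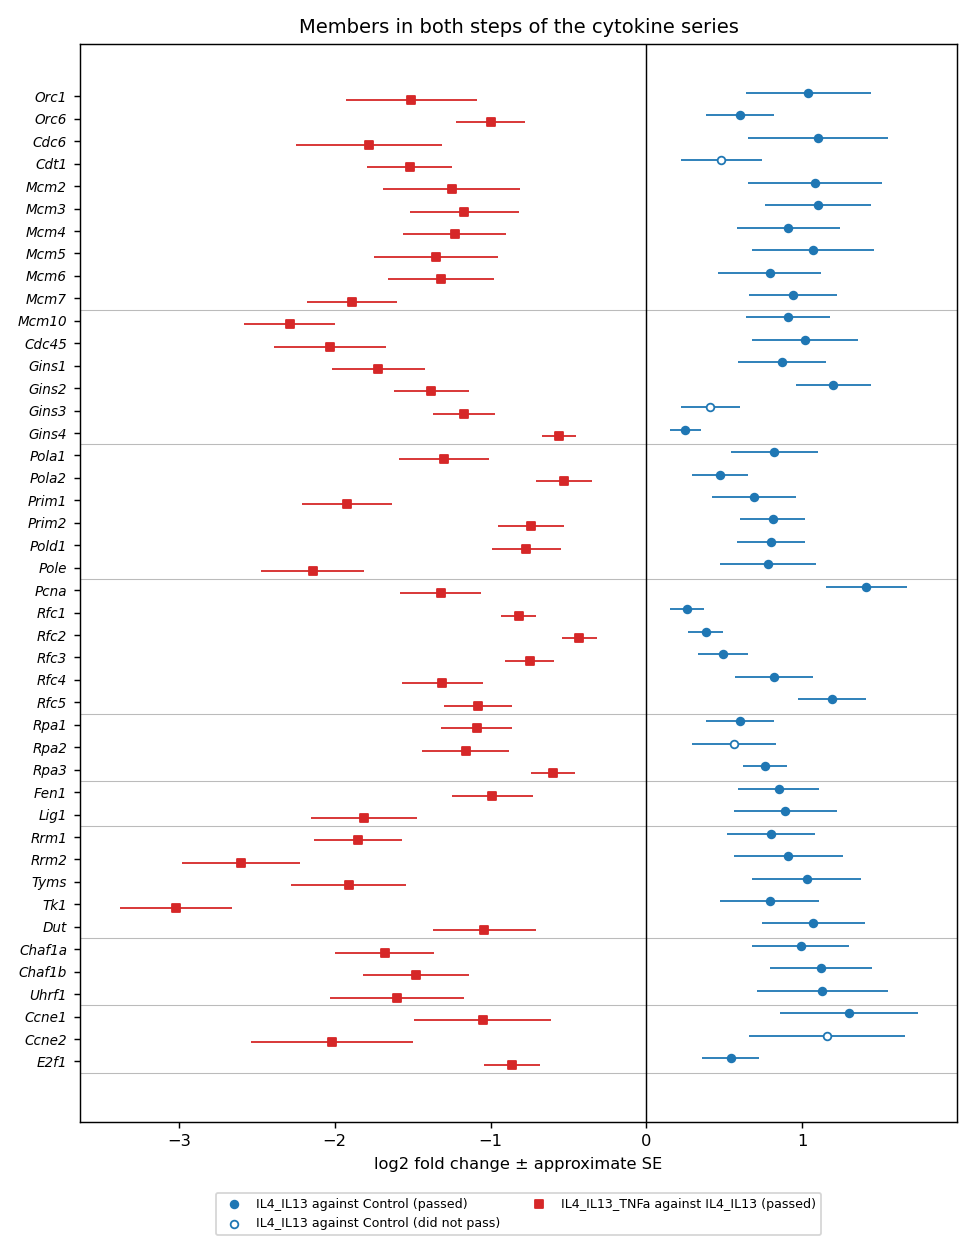
Log2 fold change ± approximate SE of each member in IL4_IL13 against Control (blue circles, open where the test was not passed) and IL4_IL13_TNFa against IL4_IL13 (red squares), by role. All blue points lie right of 0 and all red points left of it; both comparisons use the IL4_IL13 libraries, which ties the values to each other, and Tk1 at -3.02 and Pcna at 1.41 mark the ends.

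Among the 10 licensing genes, 9 rose with IL-4 and IL-13 and 10 fell with added TNFa, at a median of -1.34. Mcm7, a subunit of the MCM helicase ring, was at 36.5, 54.6 and 159 CPM in Control (lowest, median and highest library), 91.4, 134 and 171 in IL4_IL13 and 28.2, 34.8 and 48.3 in IL4_IL13_TNFa. The IL4_IL13 libraries all lay above the IL4_IL13_TNFa libraries. Mcm7 had the largest fall of this group, -1.89 ± 0.29 (edgeR adjusted p = 1.59e-05), after a rise of 0.94 ± 0.28 (0.00748) over Control, 1.38 without Control replicate 1. Orc6, the smallest subunit of the origin recognition complex, had the smallest fall, 2.00-fold (edgeR adjusted p = 0.000844). Its levels were 9.84, 12.2 and 30.7 CPM in Control, 18, 22.2 and 30.2 in IL4_IL13 and 10.3, 11 and 13.4 in IL4_IL13_TNFa. Only Control replicate 1 lay above the IL4_IL13 libraries, and Orc6 rose by 0.60 ± 0.22 over Control (edgeR adjusted p = 0.0261; 0.94 without Control replicate 1), a call lost without Control replicate 2, 3, 5 or 6 or IL4_IL13 replicate 1 or 4. That call was also lost with no filter on low counts (edgeR adjusted p = 0.0807) and with only the libraries compared (0.052). The loading factor Cdc6 was at 3.02, 7.03 and 37.6 CPM in Control, 14.9, 23.8 and 35.3 in IL4_IL13 and 5.35, 7.06 and 7.99 in IL4_IL13_TNFa. Its IL4_IL13_TNFa values lay inside the range of the controls. Cdc6 and its partner Cdt1 fell 3.44-fold and 2.86-fold. Mcm6, the ring subunit with the most counts, was at 73.3, 94.2 and 389 CPM in Control, 164, 235 and 352 in IL4_IL13 and 81.8, 97.5 and 114 in IL4_IL13_TNFa. The same pattern of levels held, with the IL4_IL13_TNFa libraries inside the control range. Mcm2 to Mcm6 fell 2.24-fold (Mcm3) to 2.55-fold (Mcm5), and Orc1, the large ATP-binding subunit, 2.85-fold. Reads of Mcm7 and its overlapping neighbours Ap4m1 and Cops6, of Orc6 and Vps35, and of Orc1 and Gm12743 cannot be told apart if the authors' counting ignored strand, which the sources used here do not give.

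Of the 6 genes that turn the loaded ring into the active CMG helicase, 5 rose with IL-4 and IL-13 and 6 fell with added TNFa. Mcm10, a factor that activates the helicase, was at 12.9, 20.9 and 57.8 CPM in Control, 33.7, 49.3 and 69.1 in IL4_IL13 and 8.53, 9.41 and 12.4 in IL4_IL13_TNFa. Every IL4_IL13_TNFa library lay below every library of both other groups. Mcm10 fell by 2.29 ± 0.29 on the log2 scale (edgeR adjusted p = 2.09e-06) after a rise of 0.91 ± 0.27 (0.00863) over Control, 1.31 without Control replicate 1. Cdc45, the helicase cofactor whose gene overlaps Ufd1 on the other strand, fell 4.08-fold (edgeR adjusted p = 8.27e-05). The GINS subunits fell by unequal amounts: Gins1 fell 3.29-fold, Gins2, which overlaps the more abundant Gse1 on the other strand, 2.60-fold, Gins3 2.24-fold and Gins4 1.47-fold. Gins4 was at 21.9, 23.6 and 33.7 CPM in Control, 26.5, 29.7 and 35.2 in IL4_IL13 and 17.9, 20.8 and 23.6 in IL4_IL13_TNFa. IL4_IL13 and IL4_IL13_TNFa did not overlap, with a fall of -0.56 ± 0.11 (edgeR adjusted p = 0.000156). Its rise of 0.25 ± 0.10 over Control (edgeR adjusted p = 0.0472; 0.35 without Control replicate 1) was the smallest among the members and was lost under 14 of the alternatives, among them library totals (0.0939).

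The 6 polymerase and primase genes all rose with IL-4 and IL-13 and all fell with added TNFa. Pole, the catalytic subunit of the leading-strand polymerase epsilon, was at 18.1, 30.1 and 99.7 CPM in Control, 44, 64.3 and 95.2 in IL4_IL13 and 13.8, 15.4 and 17.1 in IL4_IL13_TNFa. All 6 IL4_IL13_TNFa libraries lay below all libraries of the other groups. The fall of Pole was -2.14 ± 0.33 (edgeR adjusted p = 1.79e-05), and the rise over Control was 0.78 ± 0.31 (0.0385; 1.31 without Control replicate 1), which did not pass in 10 of the alternatives, for example without IL4_IL13 replicate 1 (0.092). Pold1, the catalytic subunit of polymerase delta, the lagging-strand enzyme, fell 1.71-fold (edgeR adjusted p = 0.00599). Within polymerase alpha-primase, Prim1 was at 9.90, 14.3 and 40.6 CPM in Control, 20.3, 27.1 and 41.4 in IL4_IL13 and 5.75, 7.62 and 9.06 in IL4_IL13_TNFa. Its IL4_IL13_TNFa libraries lay below all controls. The primase subunit Prim1 fell 3.78-fold and the catalytic subunit Pola1 2.46-fold, while the large primase subunit Prim2 fell 1.67-fold. Pola2, the accessory subunit, was at 21.7, 24.9 and 51.2 CPM in Control, 30.8, 40.3 and 48.8 in IL4_IL13 and 23.9, 28.3 and 33.2 in IL4_IL13_TNFa. It alone of the members overlapped between IL4_IL13 and IL4_IL13_TNFa. Its fall was -0.53 ± 0.18 (edgeR adjusted p = 0.0159, and 0.086 with no filter on low counts), and its rise 0.47 ± 0.18 (0.0312; 0.71 without Control replicate 1), lost without Control replicate 3, 4, 5 or 6 or IL4_IL13 replicate 1 or 4. The rise of Pola2 was also lost with no filter (edgeR adjusted p = 0.088) and with only the libraries compared (0.0566).

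Pcna, the sliding clamp that holds polymerases on DNA, had the largest rise of any member with IL-4 and IL-13 in the fit of all 18 libraries, while Ccne2, Ccne1, Cdc6, Mcm2 and Uhrf1 rose more without Control replicate 1, and Ccne1 and Ccne2 more with the replicate block. It was at 66.5, 82.9 and 265 CPM in Control, 261, 298 and 327 in IL4_IL13 and 105, 119 and 129 in IL4_IL13_TNFa. Control replicate 1, at 265 CPM, lay above the lowest IL4_IL13 library, and the other controls lay below all of them. The rise was 1.41 ± 0.26 (edgeR adjusted p = 0.000136, and 1.88 without Control replicate 1) and the fall with added TNFa -1.32 ± 0.26 (0.000203). Counts assigned to the pseudogene copy Pcna-ps2 came to 0.606% of those of Pcna. The 5 clamp loader genes all rose and all fell. Rfc4 fell by 1.31 on the log2 scale and Rfc5 by 1.08. Rfc2 was at 31.7, 36.6 and 57.2 CPM in Control, 46.5, 51.1 and 57.6 in IL4_IL13 and 35.1, 37.3 and 43.3 in IL4_IL13_TNFa. The IL4_IL13 and IL4_IL13_TNFa libraries did not overlap, yet its fall of -0.43 ± 0.11 (edgeR adjusted p = 0.00336) was the smallest of the members. Its rise over Control was 0.38 ± 0.11 (edgeR adjusted p = 0.00747), and 0.52 without Control replicate 1. Rfc1, the large subunit, fell by 0.82 and Rfc3 by 0.75 on the log2 scale. Rfc2 overlaps Lat2, Rfc4 Eif4a2 and Rfc5 Wsb2 on the opposite strand, and the neighbours hold more counts than the members, so these 3 values are uncertain.

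The RPA trimer coats single-stranded DNA at the fork. Rpa2 was at 18.7, 23.1 and 71.3 CPM in Control, 30.1, 44.8 and 63.7 in IL4_IL13 and 18.2, 19.7 and 24.3 in IL4_IL13_TNFa. IL4_IL13 and IL4_IL13_TNFa did not overlap, and Rpa2 fell by 1.16 ± 0.28 on the log2 scale (edgeR adjusted p = 0.00155), close to Rpa1 at -1.09 ± 0.23 (0.000424). Against Control the Rpa2 difference was 0.56 ± 0.27 and did not pass, while without Control replicate 1 it was 1.01 ± 0.16 (edgeR adjusted p = 1.72e-05). Rpa3, the smallest subunit, was at 5.14, 5.69 and 9.08 CPM in Control, 7.92, 11.2 and 13.1 in IL4_IL13 and 6.74, 7.08 and 7.45 in IL4_IL13_TNFa. The IL4_IL13_TNFa libraries lay just under the lowest IL4_IL13 library. Rpa3 rose by 0.76 ± 0.14 (edgeR adjusted p = 0.000133; 0.90 without Control replicate 1) and fell by 0.60 ± 0.14 on the log2 scale (0.0011).

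Both genes of Okazaki fragment joining rose and then fell. Lig1, the ligase that seals the lagging strand, was at 30.6, 48.9 and 186 CPM in Control, 89.1, 125 and 174 in IL4_IL13 and 29.8, 35.8 and 43.8 in IL4_IL13_TNFa. The lowest IL4_IL13 library held more than the highest IL4_IL13_TNFa library, and the fall was -1.81 ± 0.34 (edgeR adjusted p = 0.000152). Its rise was 0.89 ± 0.33 (edgeR adjusted p = 0.0269; 1.49 without Control replicate 1), lost without Control replicate 2, 3, 4 or 6 or IL4_IL13 replicate 1 or 4. The rise of Lig1 was also lost with no filter on low counts (edgeR adjusted p = 0.0949) and with only the libraries compared (0.0582). Fen1, the nuclease that trims flaps, was at 30.1, 43.3 and 128 CPM in Control, 76.2, 101 and 126 in IL4_IL13 and 45.3, 49.3 and 58.9 in IL4_IL13_TNFa. It rose by 0.85 ± 0.26 (edgeR adjusted p = 0.00982; 1.29 without Control replicate 1) and fell by 0.99 ± 0.26 on the log2 scale (0.00336). Fen1 overlaps Tmem258 and Lig1 overlaps Zswim9 on the opposite strand.

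The 5 deoxynucleotide genes had the lowest median of the 9 roles with added TNFa, -1.91, and included the members with the 2 largest falls. Tk1, thymidine kinase of the salvage pathway (chromosome 11, 117815526 to 117826092, minus strand, GRCm38), was at 19.1, 33.9 and 114 CPM in Control, 55.8, 77.3 and 103 in IL4_IL13 and 6.88, 9.15 and 13.1 in IL4_IL13_TNFa. Every IL4_IL13_TNFa library lay below every control as well as every IL4_IL13 library. Tk1 fell 8.13-fold, by 3.02 ± 0.36 on the log2 scale (edgeR adjusted p = 6.96e-07). Over Control it rose in IL4_IL13 by 0.79 ± 0.32 (edgeR adjusted p = 0.0419, and 2.47-fold without Control replicate 1), a call lost without any 1 of Control replicates 2 to 6 or of IL4_IL13 replicates 1, 2, 4 and 6. The call was also lost with library totals (edgeR adjusted p = 0.0503), no filter on low counts (0.13) and only the libraries compared (0.0707). Rrm2, the small subunit of ribonucleotide reductase whose synthesis is tied to S phase, was at 33.1, 67.8 and 239 CPM in Control, 106, 170.3 and 229.8 in IL4_IL13 and 21.0, 26.8 and 35.1 in IL4_IL13_TNFa. It fell 6.06-fold (edgeR adjusted p = 8.83e-06), and the large subunit Rrm1 3.59-fold. Rrm1, which is made through more of the cell cycle, was at 67.8, 111 and 321 CPM in Control, 169, 241 and 323 in IL4_IL13 and 53.3, 66.6 and 80.1 in IL4_IL13_TNFa. For both subunits IL4_IL13 and IL4_IL13_TNFa did not overlap. Tyms, the thymidylate synthase, fell 3.75-fold. Dut, which removes dUTP, was at 6.79, 10.1 and 38.0 CPM in Control, 21.4, 27.8 and 39.2 in IL4_IL13 and 11.9, 14.0 and 17.2 in IL4_IL13_TNFa. IL4_IL13 and IL4_IL13_TNFa did not overlap. Dut rose by 1.07 ± 0.33 (edgeR adjusted p = 0.0105; 1.70 without Control replicate 1) and fell by 1.04 ± 0.33 on the log2 scale (0.012, and 0.0621 with no filter on low counts). Tk1 overlaps Afmid on the opposite strand, which held 13.2% as many counts.

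The 3 genes that rebuild chromatin behind the fork all rose with IL-4 and IL-13 and all fell with added TNFa. Chaf1a, the large subunit of the histone chaperone CAF-1, was at 18.4, 29.0 and 103 CPM in Control, 56.5, 78.4 and 107 in IL4_IL13 and 21.7, 24.7 and 27.9 in IL4_IL13_TNFa. Its partner Chaf1b was at 5.77, 8.94 and 31.7 CPM in Control, 17.7, 25.1 and 35.4 in IL4_IL13 and 8.45, 9.17 and 11.2 in IL4_IL13_TNFa. For both, all IL4_IL13 libraries lay above all IL4_IL13_TNFa libraries. Chaf1a rose by 0.99 ± 0.31 (edgeR adjusted p = 0.0111; 1.55 without Control replicate 1) and fell by 1.68 ± 0.32 on the log2 scale (0.000185). Chaf1b rose by 1.12 ± 0.33 (edgeR adjusted p = 0.00742; 1.70 without Control replicate 1) and fell by 1.48 ± 0.34 on the log2 scale (0.000952). Uhrf1 was at 19.0, 36.0 and 194 CPM in Control, 85.2, 126 and 195 in IL4_IL13 and 33.7, 43.8 and 52.6 in IL4_IL13_TNFa. Uhrf1, which brings the maintenance DNA methyltransferase to copied DNA, rose 2.19-fold (3.95-fold without Control replicate 1) and fell 3.03-fold. Chaf1a overlaps Ubxn6, which held 115% as many counts.

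The E-type cyclins partner Cdk2 at the start of S phase. Ccne2 was at 4.34, 8.46 and 62.1 CPM in Control, 22.7, 35.7 and 57.4 in IL4_IL13 and 6.04, 9.63 and 11.4 in IL4_IL13_TNFa. Its Control replicate 1 was 7.92 times the mean of the other controls, the widest gap among the members. Ccne2 fell by 2.02 ± 0.52 on the log2 scale (edgeR adjusted p = 0.00263), while the difference from Control was 1.16 ± 0.50 and did not pass, against 2.28 ± 0.26 without Control replicate 1 (8.77e-07). Ccne1 was at 2.42, 4.40 and 28.6 CPM in Control, 14.3, 19.1 and 28.5 in IL4_IL13 and 8.64, 9.82 and 12.1 in IL4_IL13_TNFa. Its IL4_IL13_TNFa libraries lay between controls 2 to 6 and the IL4_IL13 libraries. Ccne1 rose 2.46-fold (4.83-fold without Control replicate 1) and fell 2.07-fold, the latter at an edgeR adjusted p of 0.0473. E2f1, the transcription factor, was at 36.3, 39.6 and 84.6 CPM in Control, 55.6, 68.9 and 82.4 in IL4_IL13 and 30.5, 37.0 and 43.1 in IL4_IL13_TNFa. IL4_IL13 and IL4_IL13_TNFa did not overlap. E2f1 rose by 0.54 ± 0.18 (edgeR adjusted p = 0.0129; 0.81 without Control replicate 1) and fell by 0.86 ± 0.18 on the log2 scale (0.000366). Reads of Ccne2 and its overlapping neighbour Ints8 are subject to the same doubt about strand.

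IL4_IL13_TNFa against Control sets all 3 cytokines together against M-CSF alone, and shares its libraries with both comparisons above. Of the 44 members 15 fell and 29 did not pass (background 37.3% called lower and 36.4% called higher), at a median log2 fold change of -0.48 beside -0.02 over all tested genes. The share called lower was thus close to that of all tested genes. For 5 members, Mcm10, Prim1, Pole, Rfc1 and Tk1, every IL4_IL13_TNFa library lay below every control (background 25.1%). Tk1 was 4.72-fold lower (-2.24 ± 0.35 on the log2 scale, edgeR adjusted p = 1.41e-05), Rrm2 3.22-fold, Mcm10 2.60-fold and Pole 2.58-fold. With library totals as the scale 25 members were lower, on a median of -0.27 for all tested genes, where 24.9% of all tested genes were higher and 51.4% lower.

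Without Control replicate 1, 11 members were lower and 10 higher, at a median of -0.03. Both were smaller shares than among all tested genes (background 38.7% and 39.0%). The 11 lower ones, also lower with all 18 libraries, were Cdt1, Mcm7, Mcm10, Gins3, Gins4, Prim1, Pole, Rfc1, Rrm1, Rrm2 and Tk1. Cdc45, Gins1, Lig1 and Tyms, lower with all 18 libraries, did not pass there, and 14 members were lower (background 40.4%) when the replicate block was added to the same libraries. Higher without it were Mcm2, Mcm3, Mcm5, Prim2, Pold1, Pcna, Rfc5, Rpa3, Dut and Ccne1. Ccne1 stood at 1.22 ± 0.21 (edgeR adjusted p = 4.6e-05), against 0.25 ± 0.45 (0.633) with all 18 libraries. Pcna stood at 0.56 ± 0.08 (edgeR adjusted p = 2.07e-06), against 0.09 ± 0.25 (0.757), and Tk1 at -1.72 ± 0.23 (2.33e-06). Counted by library, the 6 IL4_IL13_TNFa values lay below controls 2 to 6 for 5 members (background 32.3%) and above them for 6, namely Pold1, Pcna, Rfc5, Rpa3, Dut and Ccne1 (background 34.1%). These too were smaller shares than among all tested genes. The helicase subunits fell on both sides: Mcm7 was lower at -0.51 ± 0.18 (edgeR adjusted p = 0.0149), and Mcm2 higher at 0.76 ± 0.22 (0.00475).

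**Figure D4:**
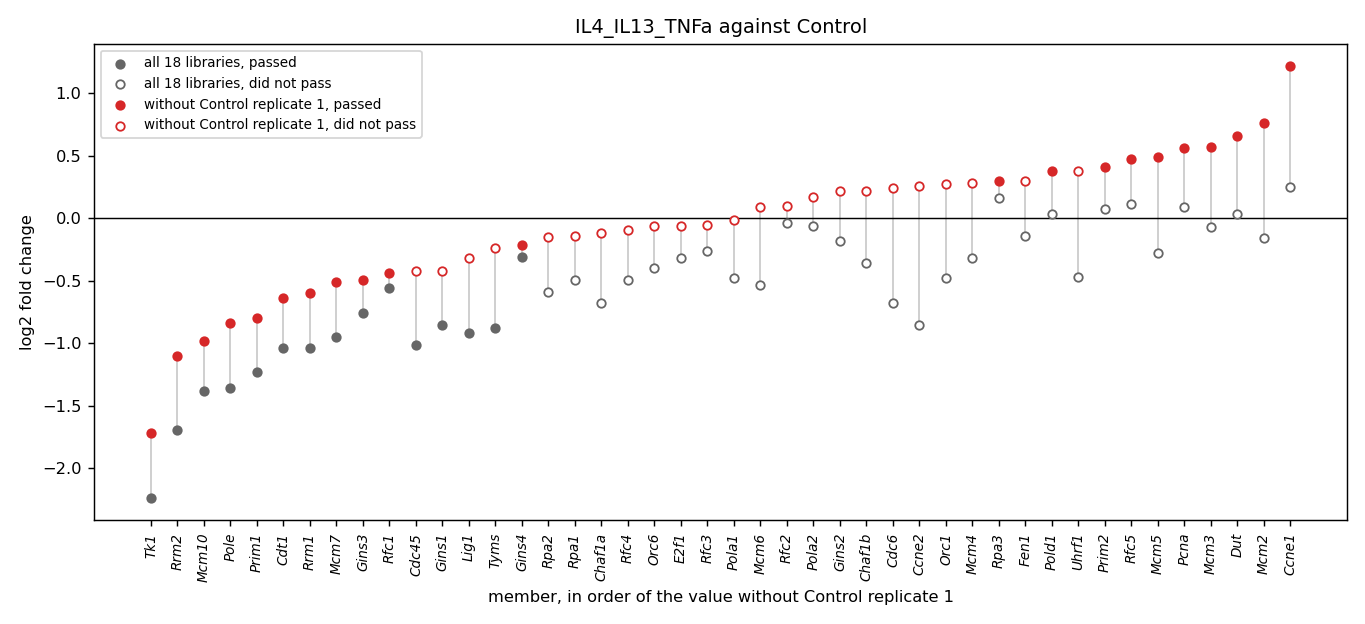
Log2 fold change of each member in IL4_IL13_TNFa against Control with all 18 libraries (grey) and without Control replicate 1 (red), filled where the test was passed; members are ordered by the second value and lines join the 2 values. Leaving out the library moves every point up, least for Gins4 and Rfc1 and most for Ccne2 and Ccne1, and sets 10 members above 0 past the threshold.

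Levels per length (RPKM, the CPM divided by the merged exon length in kilobases) were set side by side. That length spans all annotated exons of a gene and can exceed any single transcript, so the orders below depend on it. In IL4_IL13, Pcna led the members at a mean of 124 RPKM, ahead of Rrm2 at 60.8, Mcm6 at 52.7 and Mcm5 at 46.6, and Orc1 was last at 1.91. Within the MCM ring, Mcm2 was lowest and Mcm6 highest in all 3 groups, with ratios of 5.25 in Control, 4.28 in IL4_IL13 and 4.06 in IL4_IL13_TNFa. Gins4 was the most abundant of the GINS transcripts in every group, at 22.4 RPKM in IL4_IL13 beside 5.89 for Gins3, the least abundant there. The order of the alpha-primase subunits differed: Prim1 was highest in Control (4.62) and IL4_IL13 (7.45) and lowest in IL4_IL13_TNFa (1.97), where Pola2 led (3.39). Per length, the ratio of Rrm2 to Rrm1 was 2.56 in Control, 2.76 in IL4_IL13 and 1.63 in IL4_IL13_TNFa. In mean CPM, Rrm1 was the higher in every group, and the merged lengths were 11012 bases for Rrm1 and 2771 for Rrm2. No test was made of these orders and ratios.

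Beyond the members, 6 lists hold other genes of the pathway. Of their 77 genes, 43 rose and 3 fell in IL4_IL13 against Control, at a median of 0.59, beside 29.3% and 29.7% of all tested genes. The counts were 63 and 6 without Control replicate 1, at a median of 0.82, beside 35.5% and 32.5% of all tested genes. With added TNFa 49 fell and 7 rose, at a median of -0.65, beside 29.3% and 30.3% of all tested genes. Among 15 licensing and firing genes 9 fell and 1 rose (Ticrr, which helps fire origins, fell by 2.66 on the log2 scale), and among 12 polymerase and clamp genes 8 fell (Pclaf, which binds PCNA, by 2.80). Among 12 nucleotide supply genes 6 fell and 2 rose, and among 11 chromatin copying genes 7 fell (the histone chaperone Asf1b by 2.71). Among 15 fork protection and checkpoint genes 10 fell and 2 rose (Fancd2, of DNA crosslink repair, fell by 2.91). The rises included Samhd1, which breaks down deoxynucleotides, at 1.08 ± 0.16 (edgeR adjusted p = 9.42e-06), and Rrm2b, the ribonucleotide reductase subunit used outside S phase, at 0.50 ± 0.09 (8.16e-05).

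Of 12 E2F, DP and pocket protein genes, 9 fell and 2 rose with added TNFa. E2f7 fell by 2.63 and E2f2 by 2.24 on the log2 scale. E2f5 rose by 0.74 ± 0.07 (edgeR adjusted p = 4.18e-08) and E2f4, an E2F known mainly as a repressor, by 0.21 ± 0.08 (0.0292). The pocket protein genes Rb1, Rbl1 and Rbl2 fell by 0.42, 1.19 and 0.60. Of the 15 mitosis genes 15 fell, at a median of -3.41, with Cenpf at -4.36 ± 0.24 (edgeR adjusted p = 2.04e-11). Against Control with all 3 cytokines the mitosis genes were 15 of 15 lower as well, at a median of -2.84, and -2.51 without Control replicate 1. The replication members were at -0.48 and -0.03 in the same comparison. This difference between the lists was not tested.

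**Figure D5:**
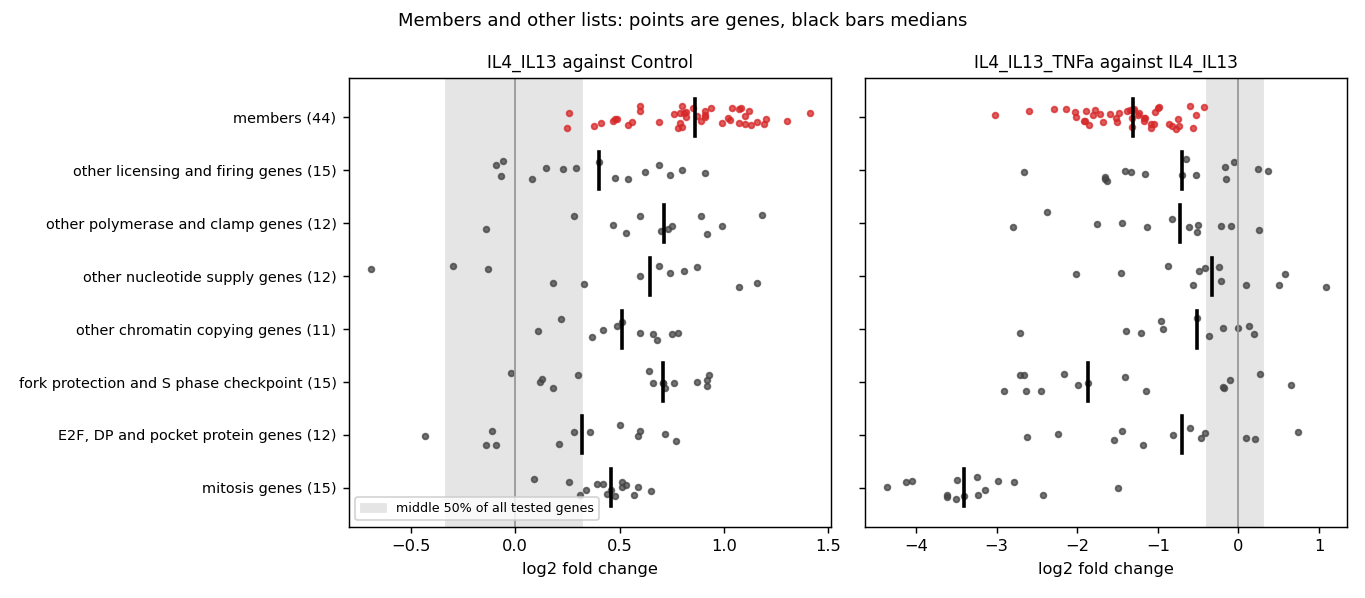
Log2 fold changes of the members (red) and of 7 other gene lists (grey points are genes, black bars medians) in IL4_IL13 against Control (left) and IL4_IL13_TNFa against IL4_IL13 (right); the shaded band holds the middle 50% of all tested genes. The members lie right of 0 on the left and left of 0 on the right, and the mitosis genes lie farthest left on the right, at a median of -3.41.

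Promoter windows of RefSeq (build GRCm38.p6, 250 bases before to 50 after the start) were found for 36 of the 44 members. As E2F words, on either strand, the search took TTCCCGC, its variant TTCGCGC, the related word TTGCCGC and the related word TTGGCGC. At least 1 was present in 23 of the 36 (63.9%) and in 10.9% of 27025 genes with a window. The CCAAT box (CCAAT, either strand) was in 61.1% of the members and 41.1% of all genes, and TTTGAA, the core of the cell cycle homology region (either strand), in 11.1% and 20.2%. E2F and CCAAT words overlapped in 3 members, and E2F words can overlap each other. The median log2 fold change with added TNFa was -1.35 for the 23 members with an E2F word and -1.09 for the 13 without. A match is a description of letters, not a bound site.

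Shown here are the promoters of the members with a window that fell most (Tk1 and Rrm2) and least (Pola2 and Rpa3) with added TNFa, so that the extremes can be read side by side, and that of Mcm6, which held the most E2F words and was chosen after the sequences were seen. E2F words are in capitals, and bases of annotated untranslated exons are left out. Tk1 (chr11:117826093-117826264, minus strand) had none of the words in its window. Rrm2 (chr12:24708004-24708240, plus strand) had 1 E2F word at 235 and a CCAAT word at 50 bases before the start. Pola2 (chr19:5964207-5964456, minus strand) had none. Rpa3 (chr6:8259174-8259287, minus strand) had CCAAT words at 86 and 55 bases before the start, and its E2F word, at 29, lies in the part left out. Mcm6 (chr1:128359706-128359955, minus strand) had 4 E2F words before the start as 2 overlapping pairs, and 1 after it. For Mcm6 these places refer to the RefSeq start only. Bases just after that start were not found in its GENCODE transcripts, and the GENCODE gene begins further in, at 128359664.
Tk1: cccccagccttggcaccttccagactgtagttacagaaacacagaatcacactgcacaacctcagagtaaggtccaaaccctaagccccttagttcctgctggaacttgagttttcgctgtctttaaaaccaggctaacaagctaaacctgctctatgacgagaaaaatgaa
Rrm2: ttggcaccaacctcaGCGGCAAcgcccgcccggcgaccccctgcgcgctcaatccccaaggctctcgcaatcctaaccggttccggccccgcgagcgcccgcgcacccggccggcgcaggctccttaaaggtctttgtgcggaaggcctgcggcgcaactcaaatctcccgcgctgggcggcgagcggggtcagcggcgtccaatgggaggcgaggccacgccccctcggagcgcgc
Pola2: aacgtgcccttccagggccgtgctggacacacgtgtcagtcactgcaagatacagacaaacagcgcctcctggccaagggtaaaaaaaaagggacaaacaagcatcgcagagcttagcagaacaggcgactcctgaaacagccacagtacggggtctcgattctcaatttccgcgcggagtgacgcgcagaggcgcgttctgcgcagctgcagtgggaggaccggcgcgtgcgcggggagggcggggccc
Rpa3: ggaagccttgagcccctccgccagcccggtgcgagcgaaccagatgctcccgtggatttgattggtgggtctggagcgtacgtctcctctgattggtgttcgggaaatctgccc
Mcm6: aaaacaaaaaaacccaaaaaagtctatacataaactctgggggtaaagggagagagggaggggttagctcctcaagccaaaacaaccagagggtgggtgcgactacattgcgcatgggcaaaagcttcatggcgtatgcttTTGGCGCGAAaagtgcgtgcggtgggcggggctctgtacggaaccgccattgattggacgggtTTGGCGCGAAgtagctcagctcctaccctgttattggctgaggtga
Both the largest fall (Tk1, -3.02) and the smallest of these (Pola2, -0.53) came without an E2F word in the window.

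Markers of other cell types were read beside these results. The 8 macrophage markers were all detected, with summed levels of 13922 to 24683 CPM in Control (lowest in replicate 1), 8209.8 to 9975 in IL4_IL13 and 8816 to 9577 in IL4_IL13_TNFa. With IL-4 and IL-13, 6 of them fell and 1 rose, and with added TNFa 4 fell and 2 rose. The 10 stromal markers, of cells that also divide in marrow cultures, summed to 22.5 to 695 CPM in Control, 62.0 to 609.9 in IL4_IL13 and 64.1 to 402 in IL4_IL13_TNFa. The 7 tested stromal markers had edgeR adjusted p of 0.16 (Col3a1) or higher in the 3 comparisons, and the summed level was lower with TNFa in 5 of 6 replicate numbers. The 6 haematopoietic progenitor markers summed to 20.7 to 65.0 CPM in Control, 22.8 to 56.5 in IL4_IL13 and 4.38 to 5.40 in IL4_IL13_TNFa. Without TNFa most of this was Cd34, which fell by 4.73 on the log2 scale, while the defining markers Kit, Myb and Gata2 had means under 2 CPM in each group. Of the 4 tested progenitor markers, 2 rose and 0 fell with IL-4 and IL-13, and 2 fell and 1 rose with added TNFa. The neutrophil, B cell, T and NK cell and erythroid lists summed to at most 3.19 CPM in any library, with Ly6g, Cd3d, Hba-a1, Hbb-bs and Alas2 at 0 in at least 1 group. The 5 dendritic cell markers summed to 1.25 to 5.54 CPM without TNFa and 33.9 to 36.5 with it, almost all of it Zbtb46. Of the 2 that were tested, 1 was higher and 1 lower in each of the 3 comparisons. The part of these cells in the replication results was not tested.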

How the data were processed

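Polyadenylated RNA was sequenced with a directional kit, per the labels' protocols. The submitters' processing notes list bcl2fastq 2.20.0.422, STAR 2.5.2, featureCounts 1.5.1 and RSEM 1.3.0 with genome build GRCm38; the strand setting of the counting is not given in the sources used here. The deposited table holds raw counts per gene and library as the authors made them, 48794 genes by Ensembl identifier, of which 48348 were matched to symbols and lengths in GENCODE M21. The members and the other gene lists were chosen with earlier results of these data known.

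Genes were kept by edgeR 4.0.16's filterByExpr (minimum count 10, under R 4.3.3) and fitted together over 18 libraries by the robust quasi-likelihood method with TMM scaling, giving 13177 tested genes. The 3 comparisons share groups. Standard errors are the log2 fold change divided by the square root of F. Each of the 45 within-group library pairs differed by more than sampling noise (chi-square at least 2.59 times its degrees of freedom). Replicate numbers are shared between groups, and same-numbered libraries deviated together in 18 of 18 pairs (correlations 0.128 to 0.671, from the data and not the labels), so a fit with the number as a block was also made. Genes given in full are, for each role, those with the largest and smallest fall with added TNFa; levels of Cdc6, Mcm6, Prim1, Rrm1, Rrm2, Uhrf1 and Ccne1 were added after their values were seen; outside the members, the gene of each list with the largest change is named, except where it is not reported here, and Samhd1, Rrm2b, Rb1, Rbl1, Rbl2, Zbtb46, Cd34, Col3a1 and the other E2F genes were chosen after their values were seen. Alternatives were library totals, DESeq2 1.42.0 and its size factors, limma 3.58.1 with voom, no filter, a filter at 5 CPM in 6 libraries, only the libraries compared, and 18 fits that each left out 1 library. Leaving out replicate 1 of all groups was also run, and the block without Control replicate 1 was added after the data were seen. Levels per length use merged exons. Fits were tested on simulated data with the same spread for every gene and no outlying library or shared replicate effect. That test therefore does not cover the situation of Control replicate 1.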

Additional observations from a re-analysis of the deposited data

Results flagged for a closer look

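Control replicate 1 lay far above the other controls for 41 of the 44 members, the exceptions being Gins4, Rfc2 and Rpa3. The measure is the gap to the next control divided by the range of the 6 controls, set against Dixon's 95% critical value for 6 values. Among all tested genes 21% stood above by that measure in the same library. Chance alone passes the critical value in about 1 in 20 groups, counting either end and any library. The chance rate for the high end of this library alone is lower and was not computed. For the 18 members picked by the rule on the largest and smallest fall, where past that value, the gap took this share of the range: Orc6 0.792, Mcm7 0.753, Mcm10 0.668, Pola2 0.678, Pole 0.788, Pcna 0.869, Rpa2 0.828, Fen1 0.768, Lig1 0.812, Tk1 0.75, Dut 0.883, Chaf1a 0.813, Chaf1b 0.815, Ccne2 0.881 and E2f1 0.913. The library also held the lowest macrophage and stromal marker sums of the controls, 13922 and 22.5 CPM, and the highest haematopoietic progenitor sum, 65.0 CPM. The part of these in the replication values was not tested. In IL4_IL13_TNFa, replicate 6 stood above the others for Mcm7 at 0.626, just over the critical value, and for Cdc45, Rfc4 and Rfc5.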

How the results depend on the processing

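In IL4_IL13 against Control the count of 40 members called higher became 19 with no filter on low counts (background 12.4%) and 23 with only the libraries compared (background 27.2%). It ranged from 22 (background 26.9%) to 44 (background 35.5%) when each library was left out in turn. With the replicate block it was 44 (background 33.4%). In IL4_IL13_TNFa against IL4_IL13 the 44 lower members became 42 to 44 on leaving out a library, and 40 with no filter (background 11.4%). In IL4_IL13_TNFa against Control the 15 lower became 25 with library totals (background 51.4%) and 11 to 20 on leaving out a library. The 11 were without Control replicate 1 (background 38.7%) and the 20 without Control replicate 5 (background 36.8%). Higher there were 0 to 10 members on leaving out a library, the 10 being without Control replicate 1 (background 39.0%). Without replicate 1 of all 3 groups 8 were higher. With the block without Control replicate 1, a setting chosen after seeing the data, 10 were higher. The share of all tested genes called higher is not given here for these settings. The causes were not tested, apart from the left-out libraries themselves. The replicate block gave 44 lower (background 31.7%) and 15 lower members (background 39.0%) in the last 2 comparisons, the counts of the fit without it. Of 1512 values for the 18 genes with the largest or smallest fall of their role, under all alternatives run, 1405 stayed on the same side of the threshold, 69 no longer passed, 38 newly passed and 0 changed direction among called values. Low counts limit Orc1, at a median of 1.96 CPM in Control.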
